A study of Mus musculus with 10 samples.

Results

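Kif2a lies on mouse chromosome 13 with a handful of transcribed neighbours, and 5 of them were followed here: Ipo11, Dimt1, 3830408C21Rik, AI197445 and Apoo-ps. They are 5 of the 23923 genes in the deposited count table, taken by name as genes within 500 kb of Kif2a in mm10, with Kif2a itself left out. They were chosen by position and then by name, since position alone gives more genes. The table lists genes with 6 or more reads summed over all libraries, and it holds 10 genes in that window, of which these 5 had the most reads. Their levels were read in dorsal root ganglia, which hold the cell bodies of sensory neurons, by sequencing of polyadenylated RNA at an age of 1 month. The 5 Kif2a_cKO libraries came from mice with Kif2a fl/fl and Avil cre, and the 5 control libraries from mice with Kif2a fl/fl alone. The floxed allele was thus present in both groups, while cre was present in 1, so an effect of cre itself and of the Kif2a deletion cannot be told apart. Avil is active in sensory neurons, and the libraries hold the whole ganglion with its glia. In such bulk RNA, fewer cells of a type and less RNA per cell cannot be told apart.

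Kif2a encodes a kinesin of the kinesin-13 family, which does not walk along microtubules but takes them apart at their ends. Its neighbours have unrelated roles. Ipo11 encodes importin 11, a transport receptor of the importin beta family that carries proteins such as ubiquitin-conjugating enzymes and the ribosomal protein Rpl12 into the nucleus and releases them there when it binds Ran in its GTP form. Dimt1 encodes a methyltransferase that places dimethyladenosines near the end of 18S ribosomal RNA and takes part in building the small ribosomal subunit. 3830408C21Rik and AI197445 are annotated as non-coding RNAs. Apoo-ps is annotated as a processed pseudogene of Apoo, which encodes a subunit of MICOS, the complex that shapes the inner membrane of mitochondria at the cristae.

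All positions that follow are those of GENCODE release 21 for mouse (GRCm38, chromosome 13). Ipo11 spans 106794439 to 106936958 on the minus strand and ends 22038 bp from Kif2a, which spans 106958996 to 107022126 on the same strand. Dimt1 spans 106947127 to 106960224 on the plus strand, between them. Ipo11 and Dimt1 point away from each other, with 10169 bp between the start of Dimt1 and the annotated 5' end of Ipo11. Dimt1 and Kif2a point towards each other, and their last 1229 bp overlap. This stretch is exonic in both genes and makes up 31.9% of the exon bases of Dimt1 and 19.2% of those of Kif2a. With RefSeq positions the spans of Dimt1 and Kif2a overlap by more, 2330 bp. The strand setting of the read counter is not given in the sources used here, so the part of this overlap in either gene's count was not tested.

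The 3 non-coding neighbours lie on the other side. 3830408C21Rik, from 107022553 to 107055497 on the plus strand, starts 427 bp from the 5' end of Kif2a and is read away from it. Apoo-ps, a single exon of 586 bp from 107414144 to 107414729 on the minus strand, lies 392018 bp away. AI197445, from 107469822 to 107482718 on the plus strand, lies 447696 bp away, the farthest of the 5.

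**Figure D1:**
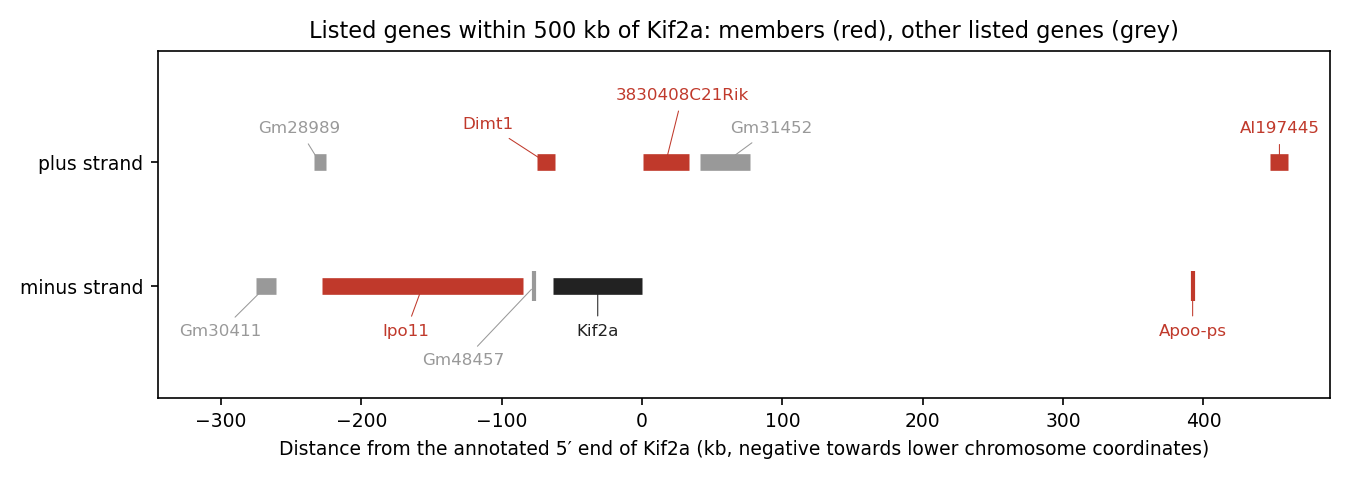
Map of the listed genes within 500 kb of Kif2a by strand, with the distance from the annotated 5' end of Kif2a in kb on the x axis. Red bars are the 5 genes described, the black bar is Kif2a and grey bars are other genes of the deposited table. Ipo11 and Kif2a lie on the minus strand with Dimt1 between them on the plus strand, while Apoo-ps and AI197445 stand apart, at 392018 and 447696 bp. Lrrc70, which is placed by RefSeq and not by GENCODE, lies inside Ipo11 and is not drawn.

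DESeq2, though not edgeR, called the 2 protein-coding neighbours different between the groups, and 3830408C21Rik shares its start region with Kif2a. The promoter windows of these genes are therefore shown first. Each runs from 250 bases before to 50 bases after the RefSeq start (GRCm38.p6) and is written 5' to 3' on the gene's own strand. Positions within them count the annotated start as 0. In Ipo11 (chr13:106936909-106937208, minus strand) the capitals mark ATTGG at -97, which is CCAAT read on the other strand, and TGACGT, part of the cyclic AMP response element, at 7.
Ipo11: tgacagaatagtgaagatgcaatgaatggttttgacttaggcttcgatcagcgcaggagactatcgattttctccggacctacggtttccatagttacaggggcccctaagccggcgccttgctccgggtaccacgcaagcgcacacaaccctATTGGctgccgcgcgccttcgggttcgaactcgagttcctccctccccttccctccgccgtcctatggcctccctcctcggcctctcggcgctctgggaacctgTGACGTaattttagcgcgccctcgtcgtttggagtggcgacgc
In Dimt1 (chr13:106946879-106947178, plus strand) the capitals mark ACTACAATTCCCAG at -95, a match to the ZNF143 motif core (ACTACA, 2 bases of any kind, then TCCCAG).
Dimt1: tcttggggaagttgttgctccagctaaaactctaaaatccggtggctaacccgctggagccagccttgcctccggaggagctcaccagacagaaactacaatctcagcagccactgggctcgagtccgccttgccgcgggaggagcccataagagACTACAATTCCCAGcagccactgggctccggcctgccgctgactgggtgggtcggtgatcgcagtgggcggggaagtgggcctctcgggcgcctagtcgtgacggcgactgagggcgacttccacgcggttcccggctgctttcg
In 3830408C21Rik (chr13:107022320-107022619, plus strand) no letters are set in capitals. 
3830408C21Rik: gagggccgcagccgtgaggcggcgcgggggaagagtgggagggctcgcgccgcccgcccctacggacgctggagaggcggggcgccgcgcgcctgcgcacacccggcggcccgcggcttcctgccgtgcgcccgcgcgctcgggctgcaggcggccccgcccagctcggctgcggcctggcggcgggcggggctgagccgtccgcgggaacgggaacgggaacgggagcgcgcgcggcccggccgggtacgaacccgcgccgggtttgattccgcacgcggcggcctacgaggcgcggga
The 5 motifs were chosen after the sequences had been seen, were searched on both strands, and may overlap one another. CCAAT was found in 37.4% of the 32851 RefSeq promoter windows of this length, TGACGT in 7.51%, and the ZNF143 motif core in 1.03%. GGGCGG, the GC box, was found in 35.7% of windows, once in that of Dimt1 and 4 times in that of 3830408C21Rik. TATAAA, found in 13.6%, had no match in these 3 windows. A match is a description of the letters and not a measured site.

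The window of 3830408C21Rik is the richest of the 3 in CpG pairs. It held 57 of them, and 0.152% of all promoter windows held as many, against 28 in Ipo11, 22 in Dimt1 and a median of 7 over all windows. It overlaps one of the RefSeq promoter windows of Kif2a, on the opposite strand, by 286 of 300 bases, and the other by 45. These 2 genes therefore share nearly the same start region, read in opposite directions.

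Apoo-ps cannot be measured apart from its parent gene over its own length. All 586 of its bases matched the Apoo transcript, bases 303 to 888, with 100% identity, and the match runs to the end of the coding sequence (397 to 888). The 120 bases below, from the start of that coding sequence, are in both genes, and in the pseudogene they lie at chr13:107414516-107414635 on the minus strand (GENCODE transcript sequence).
Apoo-ps: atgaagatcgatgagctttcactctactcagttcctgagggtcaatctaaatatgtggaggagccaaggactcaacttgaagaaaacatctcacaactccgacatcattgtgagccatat
A read that lies within such a stretch fits both places equally well, so every value of Apoo-ps below is uncertain and depends on how the authors' read counter treated reads that fit 2 places. Apoo itself lies on the X chromosome.

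The libraries held 17506135 to 34500320 counts in controls and 28686616 to 73031457 in Kif2a_cKO, where replicate 4 was the deepest. The labels do not say that the samples are separate animals, so the p-values rest on a spread that may be technical. Markers of sensory neurons fixed for this tissue were present in all libraries, summing to 8347 to 9688 CPM (counts per 1000000) in Kif2a_cKO and 6613 to 9569 in controls. Of these 8 genes 7 were above 0 in log2 fold change and 1 below, with a median of 0.14. The 1 below was Avil, the gene whose promoter drives cre. Avil was called lower in Kif2a_cKO by DESeq2 (383 ± 55.0 against 678 ± 149 CPM, SD, n = 5 each, adjusted p = 0.000195). It was not called by edgeR (adjusted p = 0.351), and no other gene of this list was called by either tool. Of the 8 genes, 2 had an unadjusted edgeR p under 0.05, Avil among them. Kif2a itself stood at 69.0 ± 4.44 CPM in Kif2a_cKO, beside 70.2 ± 8.61 CPM in controls. The labels do not say which exons are floxed, so a total count over the gene does not check the deletion.

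The libraries differed in spinal cord transcripts. The 12 marker genes of oligodendrocytes, astrocytes and spinal neurons summed to 31.7 to 296 CPM in Kif2a_cKO and to 57.8 to 2159 CPM in controls, and controls 1, 3 and 5 held 722, 2159 and 698 CPM. All 12 were present and none was at 0 in every library. All 10 that were tested were below 0 in log2 fold change, and 1 of them, Slc18a3, was called lower by DESeq2. Of these 10, 4 had an unadjusted edgeR p under 0.05. The 6 markers of myelinating Schwann cells were also all below 0 (median log2 fold change -0.31). Their summed levels were 21100 to 33340 CPM in Kif2a_cKO against 29110 to 39090 in controls. None of the 6 was called by either tool, and 3 had an unadjusted edgeR p under 0.05. Their part in the values that follow was not tested. The lists for satellite glia, macrophages, endothelium, blood and skeletal muscle had medians of 0.00, -0.16, 0.01, -0.36 and 0.28, with overlapping groups and no gene called. The satellite glia list was split, with 2 genes above 0 and 2 below, and 2 of its 4 genes had an unadjusted edgeR p under 0.05.

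All 5 neighbours had enough reads for the edgeR fit, which tested 17439 genes. They spanned a wide range of levels. Per kb of exon, Kif2a stood highest, at 9.31 to 12.5 CPM per kb over the 10 libraries, followed by Ipo11 at 4.98 to 8.16 CPM per kb. Dimt1 came next at 1.56 to 2.62 CPM per kb, and Apoo-ps at 0.778 to 2.10 CPM per kb, so these neighbours in the order overlapped. 3830408C21Rik followed at 0.306 to 0.557 CPM per kb and AI197445 was lowest at 0.0674 to 0.190 CPM per kb, with no overlap between the last 2 ranges.

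Read counts and the spread between libraries differed among the genes. Ipo11 had 851 to 4646 counts per library and Dimt1 164 to 477, whereas AI197445 had 15 to 37 and Apoo-ps 8 to 89. Counting alone would give a coefficient of variation of 2.72% for Ipo11 in controls at its mean count, and the observed one was 9.02%. For 3830408C21Rik the observed value was 23.0% against 10.7% from counting in Kif2a_cKO, and 10.6% against 12.1% in controls. For AI197445 it was 37.4% against 20.3% in Kif2a_cKO and 26.3% against 19.9% in controls. For Apoo-ps it was 25.7% against 15.9% in Kif2a_cKO and 28.9% against 20.8% in controls. The observed value of these 3 genes was thus above the one from counting in both groups, except for 3830408C21Rik in controls. With 5 libraries in a group, the excess was not tested.

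Ipo11, the nuclear import receptor, was higher in Kif2a_cKO. Its level in Kif2a_cKO replicates 1 to 5 was 60.2, 56.6, 52.6, 64.3 and 60.0 CPM, and in control replicates 1 to 5 it was 44.8, 47.5, 39.2, 48.5 and 49.6 CPM. Every Kif2a_cKO library lay above every control with TMM scaling, with Kif2a_cKO 4 highest and control 3 lowest. With library totals alone the groups touched, at 50.3 to 63.6 against 40.0 to 52.0 CPM. The means were 58.7 ± 4.39 and 45.9 ± 4.14 CPM (SD, n = 5 each), and edgeR put the difference at 27.9% with a 95% interval from 13.8% to 43.8%. The edgeR log2 fold change was 0.36 (SE 0.0781) with an adjusted p of 0.579, and an unadjusted p of 0.000564 placed it at rank 14 of 17439 genes. DESeq2 gave the same direction, 0.35 (SE 0.0850), and called it higher (adjusted p = 0.0317).

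Dimt1, the ribosomal RNA methyltransferase that starts beside Ipo11, went the other way. Its level in Kif2a_cKO replicates 1 to 5 was 6.23, 6.31, 6.02, 6.60 and 7.38 CPM, and in control replicates 1 to 5 it was 7.65, 9.57, 8.44, 9.35 and 10.1 CPM. Every Kif2a_cKO library lay below every control, and this held with TMM factors, with library totals alone and in the authors' deposited normalized counts. The nearest pair was Kif2a_cKO 5 and control 1. The means were 6.51 ± 0.532 and 9.02 ± 0.975 CPM (SD, n = 5 each). The edgeR log2 fold change was -0.47 (SE 0.107), with a 95% interval from -38.5% to -15.3% and an adjusted p of 0.579, and an unadjusted p of 0.000747 placed Dimt1 at rank 19. DESeq2 called it lower at -0.48 (SE 0.115, adjusted p = 0.0317).

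**Figure D2:**
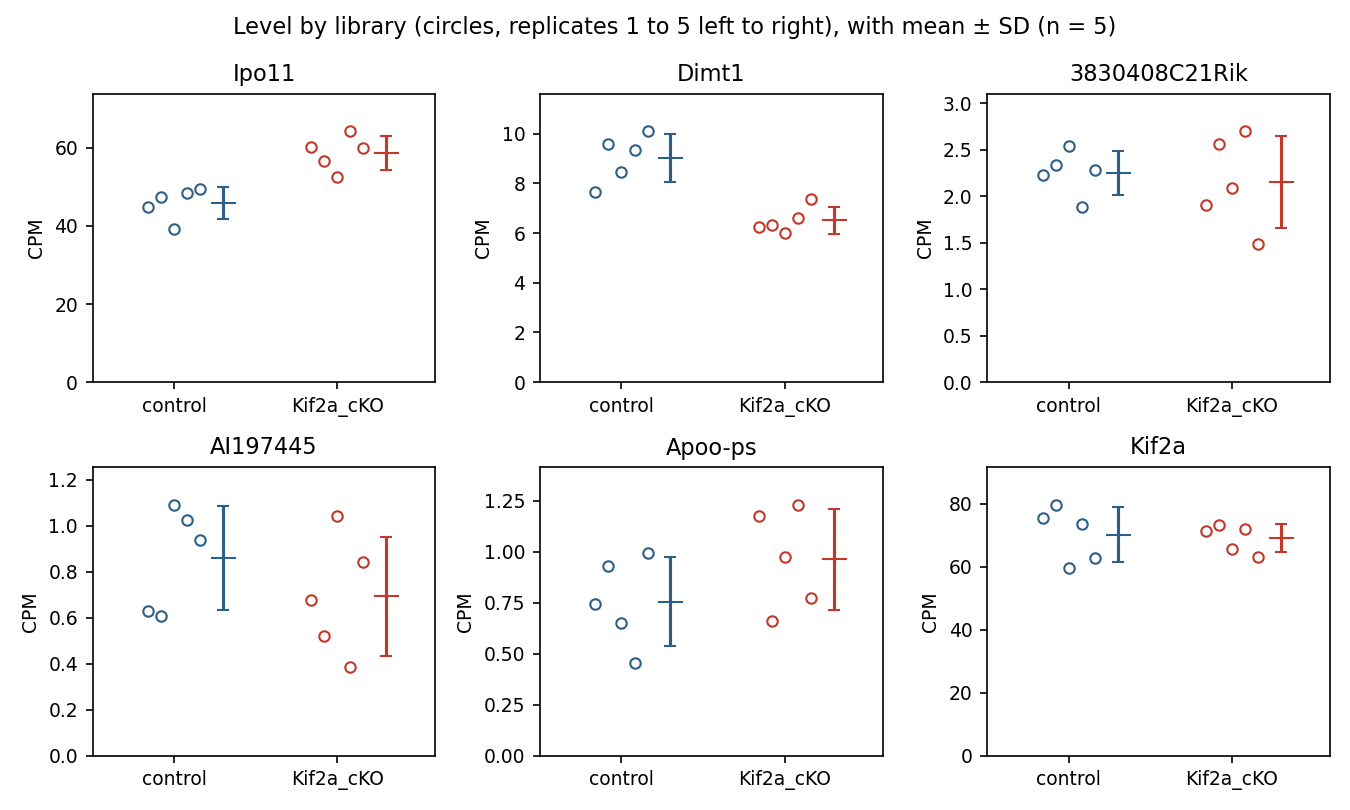
Level in CPM with TMM scaling (y axis, from 0) of the 5 neighbours and of Kif2a in each library, by group (x axis). Circles are libraries and the bars beside them give the mean ± SD (n = 5). For Ipo11 the Kif2a_cKO libraries sit between 52.6 and 64.3 CPM, above all controls, and for Dimt1 between 6.02 and 7.38 CPM, below all controls, while in the other 4 panels the groups overlap.

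The 2 calls depend on the tool. edgeR called 3 of 17439 genes over the whole table (0.0172%), none of them a neighbour of Kif2a, and limma-voom called 4 genes (0.0229%), again none of the 5 (adjusted p of 0.369 for Ipo11 and 0.320 for Dimt1). DESeq2 called 32 genes (0.183%), of which 2 were Ipo11, among genes called higher (0.086%), and Dimt1, among genes called lower (0.0975%). In the authors' deposited table the false discovery rate was under 0.05 for 46 of 23923 genes (0.192%), with 0.0263 for Ipo11 and 0.0171 for Dimt1. Neither passed the authors' 1.5-fold flag, at 1.27-fold and 1.39-fold in that table, a flag that 31 genes passed (0.13%). Groups that did not overlap in CPM were found for 204 tested genes (1.17%), with Kif2a_cKO above in 0.734% and below in 0.436%, and for 2 of the 5 neighbours, Ipo11 and Dimt1. The size of the changes was less rare, since 11.3% of tested genes had a log2 fold change at least as large in size as that of Ipo11 and 7.25% one as large as that of Dimt1.

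The estimates of both genes moved little with the processing. Over 19 alternatives, among them each library left out in turn, the log2 fold change of Ipo11 ran from 0.29 to 0.38 and that of Dimt1 from -0.54 to -0.44. Without controls 1, 3 and 5 together, which held the highest sums of spinal cord markers, only controls 2 and 4 were left in that group. Ipo11 then stood at 0.29 (SE 0.0950) and Dimt1 at -0.54 (SE 0.132). With the level of the spinal cord markers as a covariate they stood at 0.33 and -0.49. The adjusted p in these edgeR fits was 0.734 or above. The lowest estimate of Ipo11, 0.29 (SE 0.0688), came when control 3 alone was left out. That library had the lowest level of Ipo11 and the highest sum of spinal cord markers.

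**Figure D3:**
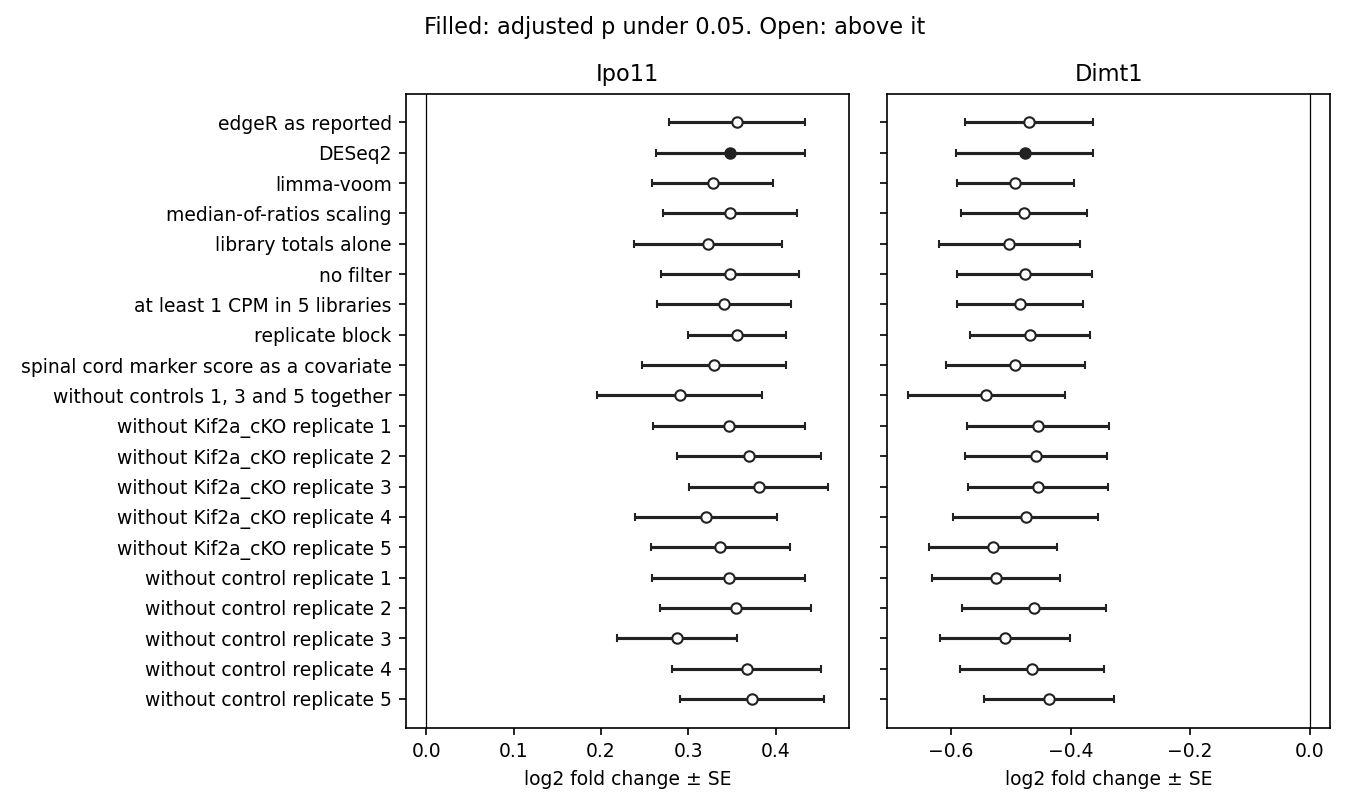
Log2 fold change of Ipo11 (left) and Dimt1 (right) on the x axis under each way of processing the counts (y axis), with bars of 1 SE. The filled point, that of DESeq2, has an adjusted p under 0.05 and the open points do not. All points of Ipo11 lie between 0.29 and 0.38 and all points of Dimt1 between -0.54 and -0.44.

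With one gene higher and the other lower, the ratio of their counts separated the groups without any scaling between libraries. Ipo11 had 9.05 ± 0.675 reads for each Dimt1 read in Kif2a_cKO (8.12 to 9.74) and 5.12 ± 0.459 in controls (4.65 to 5.86, SD, n = 5 each). This ratio was computed after both values had been seen and is given as a description. Set against Kif2a, which lies beside both, the ratios overlapped between groups. Ipo11 had 0.773 to 0.951 reads per Kif2a read in Kif2a_cKO and 0.596 to 0.791 in controls. Dimt1 had 0.0862 to 0.117 reads per Kif2a read in Kif2a_cKO and 0.102 to 0.161 in controls.

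**Figure D4:**
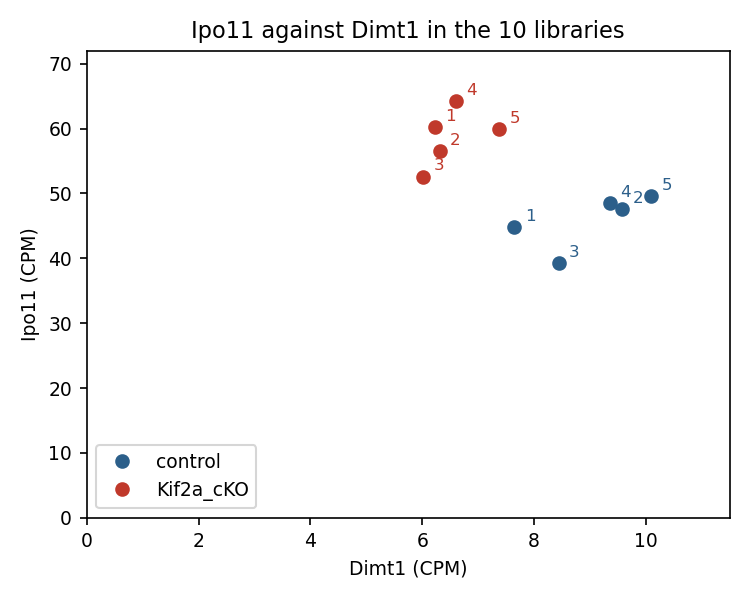
Level of Ipo11 (y axis, CPM with TMM scaling) against that of Dimt1 (x axis, same scale) in the 10 libraries, with replicate numbers beside the points and both axes from 0. Kif2a_cKO libraries sit at 6.02 to 7.38 CPM of Dimt1 and controls at 7.65 to 10.1 CPM, with all Kif2a_cKO libraries also higher in Ipo11.

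3830408C21Rik, whose start lies closest to that of Kif2a, did not differ beyond its spread. It had 1.91, 2.56, 2.09, 2.70 and 1.48 CPM in Kif2a_cKO replicates 1 to 5 and 2.23, 2.33, 2.54, 1.88 and 2.28 CPM in control replicates 1 to 5. The Kif2a_cKO values lay on both sides of the controls, with replicate 4 highest and replicate 5 lowest. Its log2 fold change of -0.07 (SE 0.186) had an edgeR adjusted p of 0.974 and a 95% interval from -27.7% to 26.2%. Kif2a, on the other side of the shared start region, had a log2 fold change of -0.02 (SE 0.0872, edgeR adjusted p = 0.986), with an interval from -13.6% to 12.2%. Without controls 1, 3 and 5 it was -0.15 (SE 0.0927), and -0.09 with the spinal cord markers as a covariate. Both signs turned under some settings, limma-voom for 3830408C21Rik among them.

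The distant pair was measured with little precision. AI197445 had 0.675, 0.520, 1.04, 0.387 and 0.843 CPM in Kif2a_cKO replicates 1 to 5 and 0.628, 0.609, 1.09, 1.03 and 0.937 CPM in control replicates 1 to 5. The groups overlapped over most of their range, and the lowest library was Kif2a_cKO 4, the deepest. Its log2 fold change of -0.33 (SE 0.304) had an edgeR adjusted p of 0.858 and an interval from -49.5% to 25.8%. It was -0.53 without Kif2a_cKO 3 and -0.15 without Kif2a_cKO 4, the libraries with its highest and lowest level in that group. Apoo-ps had 1.18, 0.659, 0.974, 1.23 and 0.775 CPM in Kif2a_cKO and 0.742, 0.932, 0.649, 0.456 and 0.995 CPM in controls, in the order of the replicates. Its groups overlapped too, and the log2 fold change of 0.34 (SE 0.262, edgeR adjusted p = 0.815) had an interval from -14.3% to 88.2%. Leaving out 1 library at a time it ran from 0.22, without control 4, to 0.45, without control 5. Neither difference was larger than the spread between libraries.

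Apoo and its pseudogene were also set side by side, because their reads cannot be told apart over the shared stretch. Apoo stood at 5.21 ± 1.07 CPM in Kif2a_cKO, beside 4.38 ± 0.50 CPM in controls (SD, n = 5 each), a log2 fold change of 0.25 (SE 0.161, edgeR adjusted p = 0.755). Each read of Apoo-ps came with 4.14 to 8.26 reads of Apoo in Kif2a_cKO and 3.59 to 10.8 in controls. The summed level of both was 6.17 ± 1.17 CPM in Kif2a_cKO against 5.14 ± 0.372 CPM, and the groups overlapped.

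Listed genes within 500 kb of Kif2a number 10, and the 5 not followed here are Gm30411, Gm28989, Lrrc70, Gm48457 and Gm31452. They held 11 to 96 reads each over all 10 libraries, against 247 for AI197445, the lowest of the 5 followed here, and none had enough reads to be tested. Lrrc70 and Gm28989 overlap exons of Ipo11. Of the RefSeq span of Lrrc70, 1209 bp lie within the 7878 exon bases that GENCODE gives for Ipo11. Gm28989 shares 240 exon bp on the opposite strand, 3.05% of the exon bases of Ipo11. Over all 10 libraries Ipo11 had 18391 reads, Lrrc70 96 and Gm28989 35. The read counter is not given, so these totals do not show how reads in the shared bases were counted. The part of this overlap in the count of Ipo11 was not tested. GENCODE annotates 18 genes other than Kif2a in this window, of which 9 are in the deposited table.

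Just outside the window, the nearest listed gene on each side of Kif2a was Gm32090, at 583158 bp on the side of AI197445 and with 20 reads in all, and Htr1a, at 1510874 bp on the side of Ipo11. Htr1a encodes a serotonin receptor. It had 5.2, 6.97, 5.25, 6.32 and 3.64 CPM in Kif2a_cKO replicates 1 to 5 and 5.94, 9.25, 7.97, 6.27 and 9.28 CPM in control replicates 1 to 5. The groups overlapped, with Kif2a_cKO 5 lowest. Its log2 fold change of -0.50 (SE 0.184) had an edgeR adjusted p of 0.703, and DESeq2 did not call it (adjusted p = 0.401).

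The wider region gives a background for these values. Within 5 Mb of Kif2a 35 genes were tested, Kif2a not counted. The 30 that are not among the 5 neighbours had a median log2 fold change of 0.03, from -0.50 to 0.24, beside 0.01 over all tested genes. Their median size of change was 0.0859, beside 0.0958 over all tested genes. None of the 30 was called by edgeR or DESeq2, none had groups that did not overlap, and 2 had an unadjusted edgeR p under 0.05 (Htr1a and Mast4, the second chosen after its value was seen), where the share over all tested genes was 6.98%.

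**Figure D5:**
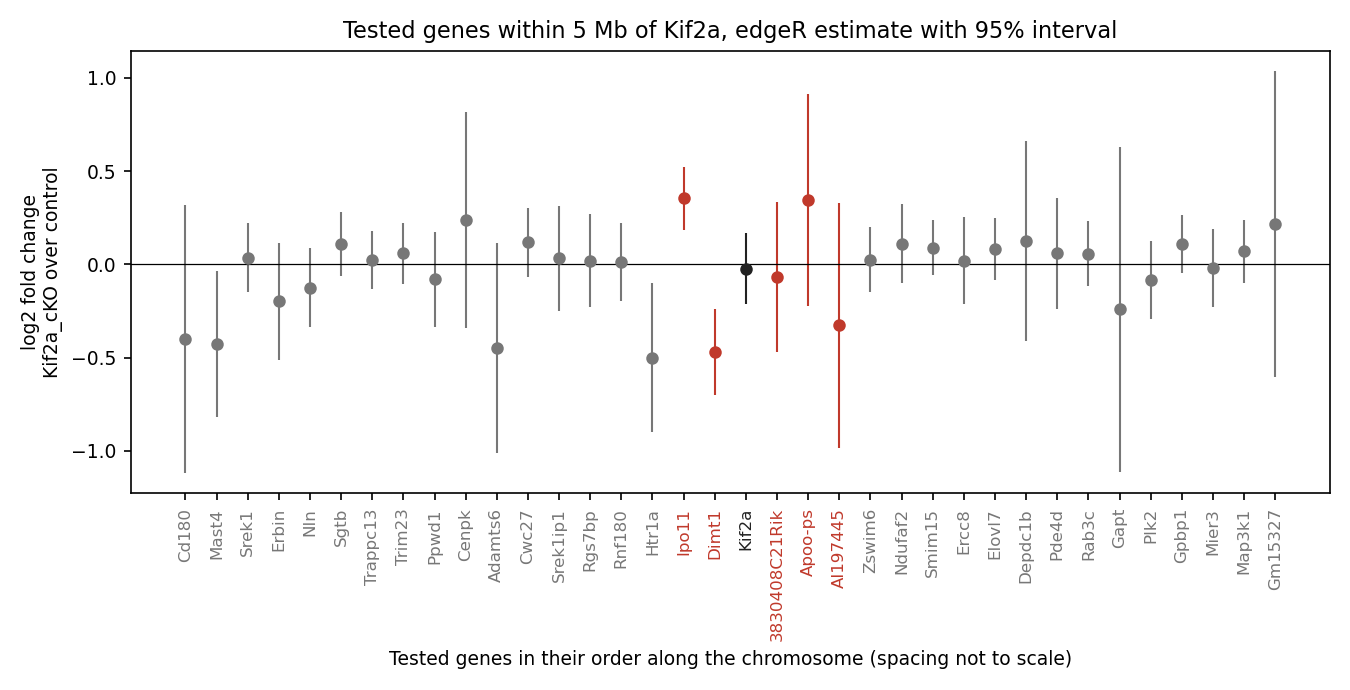
Log2 fold change with its 95% interval (y axis, edgeR) for the tested genes within 5 Mb of Kif2a, in their order along the chromosome (x axis, not to scale). Red points are the 5 neighbours and the black point is Kif2a. The intervals of Ipo11 and Dimt1 lie on opposite sides of 0, and most other intervals include it.

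The partners of importin 11 were read from lists of 68 pathway genes, of which 67 were tested and none was called by edgeR or DESeq2. Of the 19 other importin beta receptors and exportins, 14 were above 0 and 5 below, with a median log2 fold change of 0.02. The most abundant were Kpnb1, which carries classical import cargo, at 157 ± 8.04 against 152 ± 14.3 CPM, and Ipo5 at 107 ± 6.02 against 98.9 ± 5.57 CPM (Kif2a_cKO against control, SD, n = 5 each). Ranbp6 was the 1 receptor with an unadjusted p under 0.05. The 4 cargoes of importin 11 had a median of 0.01, with Rpl12 at 180 ± 25.9 against 165 ± 16.7 CPM and the ubiquitin-conjugating enzyme Ube2e2 at 65.7 ± 8.0 against 68.8 ± 6.01 CPM. Of the 13 genes of the Ran cycle and the importin alpha adaptors, 12 were tested, 9 of them above 0, with a median of 0.06. Rangap1, which stimulates GTP hydrolysis by Ran, had 232 ± 35.9 against 232 ± 30.6 CPM, and Ran itself 137 ± 4.58 against 129 ± 5.81 CPM.

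The other genes of small subunit maturation and ribosomal RNA methylation were likewise uncalled. All 22 were tested, 14 were above 0 and 8 below, and the median was 0.03. Pno1, which takes part in the late cleavage of the 18S precursor, had 35.0 ± 2.39 against 32.2 ± 1.27 CPM, and Rrp12, a pre-ribosome factor, 35.3 ± 3.65 against 33.3 ± 3.41 CPM. Of the 10 genes of MICOS and its partners, 9 were above 0, with a median of 0.14. Immt, the core subunit, had 177 ± 9.92 against 173 ± 8.45 CPM, and Micos10 123 ± 14.8 against 111 ± 6.65 CPM. The groups overlapped for every one of the 67 tested genes.

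The genes whose level followed each neighbour most closely were taken by Pearson correlation of log2 CPM over the 10 libraries, among 14989 or 14990 tested genes with a mean of at least 1 CPM. These values share libraries, groups and scaling, so a difference between groups enters them, and they are a description. They are also the highest of many correlations over 10 libraries, and how high such values run by chance was not tested. Ipo11 was followed by Calhm4 (0.956), Kcns3 (0.952) and C9orf72 (0.946), and Dimt1 by Alg10b (0.919), Npat (0.901) and Zbtb24 (0.878). 3830408C21Rik was followed by Dtnbp1 (0.956), Cers1 (0.951) and Ogfod1 (0.941), AI197445 by Gm42847 (0.938), Sgce (0.922) and Dcaf17 (0.903), and Apoo-ps by Defb42 (0.935), Gm13446 (0.885) and Cdca2 (0.852). Of these 15 genes 1, Dtnbp1, lies on chromosome 13.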

How the data were processed

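The tools named by the submitters' processing notes are cutadapt, STAR and DESeq2, with mm10 and no versions. The sources used here do not name the read counter, annotation or strandedness. Whole-number counts per symbol were deposited for each library, and each gene sums to 6 reads or more. A normalized signal (count over a size factor) was deposited beside them, and the authors deposited a log2 fold change, fold, p-value and false discovery rate of their own comparison, the rate by fdrtools per the file headers.

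The counts were fitted with edgeR 4.0.16 under R 4.3.3 (filterByExpr with minimum count 10 and total 15, TMM factors from 0.957 to 1.05, robust quasi-likelihood F test of group), adjusted by Benjamini-Hochberg over 17439 genes. A gene is called at an adjusted p under 0.05. The SE is the log2 fold change over the square root of F. CPM are counts per 1000000 with TMM factors, with a prior count of 2 on the log2 scale. Alternatives were DESeq2 1.42.0, limma-voom (limma 3.58.1), other scalings, filters and thresholds, a replicate block, a spinal cord covariate and libraries left out. The tests were tried on simulated data, and the outcome is not given here or used as support. Apoo-ps was aligned with biopython 1.88, and 97.6% of symbols matched GENCODE.

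The members and the 13 gene lists (5 of pathways, 8 of markers) were chosen with earlier results of these data known, so the tests are not independent support. Named are all members, Kif2a, Apoo, listed genes within 500 kb and the nearest beyond, the 2 most abundant genes of each pathway list and the 3 genes most like each member. Ranbp6, Slc18a3 and Avil were named beside their list's count.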

Additional observations from a re-analysis of the deposited data

Results flagged for a closer look

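The number of Dimt1 reads per Kif2a read was 0.117 in Kif2a_cKO 5, far from the other 4 Kif2a_cKO libraries, which held 0.0862 to 0.0917. The gap to the nearest library was 0.821 of the group's range, above Dixon's critical value of 0.71. Of 22 groups of 5 values looked at, this was the 1 that passed, and chance gives about 5% of groups. In that library Dimt1 stood at 7.38 CPM, its highest in Kif2a_cKO, and Kif2a at 63.1 CPM, its lowest in that group.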

How the results depend on the processing

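No neighbour of Kif2a was called by edgeR, also at an adjusted p under 0.1, and DESeq2 called 2. Over the whole table edgeR called 3 genes. DESeq2 called 32, and 0 genes were called when 1 CPM was required in 5 libraries, with the replicate block, with the spinal cord covariate and without controls 1, 3 and 5 (1011, 1499, 816 and 604 at an unadjusted p under 0.05). Leaving out each library in turn, the count ran from 0 to 3. DESeq2 moved Ipo11 (0.35) and Dimt1 (-0.48) past the threshold (adjusted p = 0.0317 each), and over 19 alternatives the adjusted p of either ran from 0.0317 to 0.991. The median within 5 Mb, 0.03, was -0.0073 with library totals alone and ran from -0.010 to 0.043 with a library left out. The sign of 3830408C21Rik turned with limma-voom (0.017) and without controls 1, 3 and 5 (0.028), and with a library left out it ran from -0.17 to 0.025. That of Kif2a ran from -0.092 to 0.013 with a library left out, and its estimate was -0.15 without controls 1, 3 and 5 and -0.09 with the spinal cord covariate. The cause was not tested. Deviations of same-numbered libraries correlated at 0.177, 0.367, 0.14, -0.147 and 0.252, so 4 of 5 pairs passed 0.1 and replicate 4 did not. Kif2a_cKO 1, 2, 3 and 5 each correlated best with the control of the same number, and Kif2a_cKO 4 with control 3. This is a hint of pairing from the data, and the sample titles also give same-numbered libraries adjacent sample numbers. The labels do not say what the numbers share. With the replicate block Ipo11 stood at 0.36 (adjusted p = 0.160) and Dimt1 at -0.47 (adjusted p = 0.297, edgeR). AI197445 and Apoo-ps had 8 to 89 reads per library, and their observed spread was above that from counting, an excess that was not tested. With 1 CPM required in 5 libraries these 2 genes were not tested and have no value.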
